A study of Mus musculus with 6 samples.

Results

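Mitochondrial DNA is transcribed and its RNA kept stable by proteins that are encoded in the nucleus, and 10 of these genes are described here in mouse embryos at the 4-cell stage. They were taken by name from the deposited table of 29431 genes: Tfam, Polrmt, Tfb2m, Tfb1m, Mterf3, Polg, Ssbp1, Lrpprc, Slirp and Pnpt1. The inhibitor group was 3 libraries of wild-type embryos given AXKO-0046, an inhibitor of lactate dehydrogenase B (LDHB), the enzyme subunit associated with turning lactate into pyruvate. The control group was 3 libraries of untreated wild-type embryos. The series text gives 6 embryos for each group without saying whether that is per library, so how many embryos a library pools is unknown. No dose, exposure time, strain, or litter is given in the labels, and nothing says that replicates came from separate cultures, so p-values speak for the scatter of 6 libraries, part of which may be technical. The question of the comparison is whether blocking LDHB changed the transcripts of this machinery.

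In outline, TFAM packages mitochondrial DNA and bends its promoters, the RNA polymerase POLRMT starts there with the help of TFB2M, and long transcripts are cut into messenger, ribosomal and transfer RNAs. POLG and SSBP1 copy the DNA. LRPPRC and SLIRP form a complex that protects mitochondrial messenger RNAs, and PNPT1 takes part in their degradation. Embryos before implantation rely on mitochondria inherited from the oocyte, in which replication of mitochondrial DNA is largely paused.

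None of the 10 genes was called changed. For the 8 genes averaging 1 FPKM or more (fragments per kilobase of transcript, scaled to the fragments of the library) limma called 0 at an adjusted p of 0.05, where 0% of all 9691 genes tested were called higher and 0% lower. The authors' deposited table likewise has 0 of the 10 at a q-value under 0.05, where it calls 0.455% of all genes higher and 0.496% lower. At an unadjusted p under 0.05 limma had 1 member, Slirp, which was higher, against a background of 4.72% of genes higher and 3.8% lower. In 6 of the 8 the difference (inhibitor minus control, on the log2(FPKM + 1) scale) was above 0, with a median of 0.22, while 57.1% of all genes tested lay above 0, with a median of 0.062. Slirp was also the 1 tested member with every inhibitor library above every control, an order found in 9.13% of genes tested, and 0 tested members lay in the opposite order, found in 6.26%. Tfb1m and Polg averaged under 1 FPKM and had no test. Of these, Tfb1m lay lower in all 3 inhibitor libraries, an order found in 4.29% of the 29431 genes above 0 in any library.

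The libraries differed in ways that touch these values. Library depth is not stated, but low values of single-transcript genes piled up at 1 repeated step, with 56 to 105 genes per library at 1 step and 9 to 15 at 1.5 steps. At 2 steps there were 81, 108 and 57 genes in inhibitor replicates 1, 2 and 3, and 60, 57 and 57 in control replicates 1, 2 and 3. Whether a step is the same unit in both groups was not tested. Read from the step, relative depth was 0.809, 0.531 and 0.604 in inhibitor replicates 1, 2 and 3, and 0.809, 0.749 and 1 in control replicates 1, 2 and 3. Between 9.54% and 14.6% of low values lay on whole steps, so reads could not be recovered. Inhibitor replicate 2 stood apart, with a median correlation of 0.888 with the other libraries across genes, which are not independent replicates, against 0.946 to 0.965 for the rest. The summed level of 5 genes of the 2-cell stage was 665 FPKM in that library, between 14.7 and 665 FPKM over all inhibitor libraries and between 7.72 and 19.6 FPKM in controls. Of 7 oocyte and embryo genes, Dppa3 made up at least 99.58% of the summed FPKM in every library (Dppa3 at 10514 to 18144 FPKM under the inhibitor and 13054 to 14496 FPKM in controls), and the other 6 were each at 0.476 to 24.2 FPKM under the inhibitor and 0.229 to 34.8 FPKM in controls. Defining genes of cumulus cells and of fibroblasts each summed to at most 0.0803 FPKM under the inhibitor and 0.0415 FPKM in controls, and of the blood genes Hba-a1 was at 69.8 to 136 FPKM under the inhibitor and 100.01 to 146 FPKM in controls while Hbb-bs was at most 0.136 FPKM under the inhibitor and listed at 0 in controls. Genes of mitochondrial DNA took 11.98%, 11.2% and 10.6% of FPKM in the inhibitor libraries and 15.1%, 16.7% and 18.9% in the control libraries. FPKM is scaled to the fragments of a library, so the levels of nuclear genes can move with that share. Rescaling each library to the same nuclear total moved the differences little. The median went from 0.062 to 0.072 over all genes tested and from 0.22 to 0.23 over the 8 tested members. Whether the libraries differed in cell number or in RNA per cell was not tested, and the 2 cannot be told apart here. The part of these library differences in the results was not tested beyond the scalings given with the results.

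**Figure D1:**
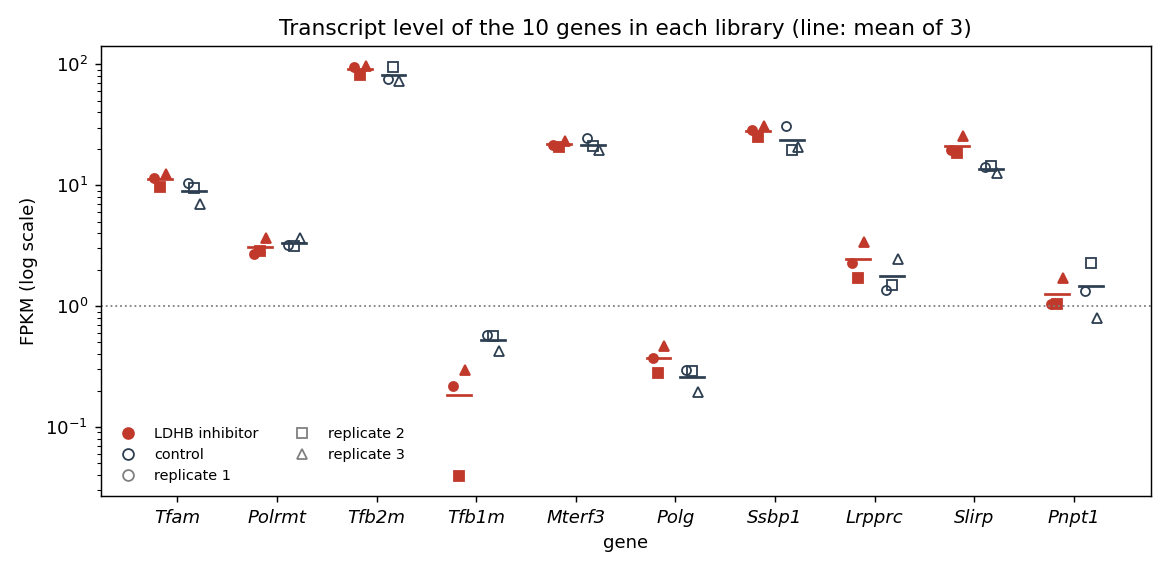
FPKM (log scale) of the 10 genes in each library, with filled red symbols for the 3 inhibitor libraries, open dark symbols for the 3 control libraries, and a line at the mean of each group. The dotted line marks 1 FPKM, the mean above which genes were tested. Tfb2m is highest throughout, Tfb1m and Polg lie below 1 FPKM, and the groups separate in Slirp and Tfb1m only.

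The promoters of 4 members are shown because Slirp and Tfb1m were the members whose groups did not overlap, and Tfam and Polrmt are the core packaging protein and polymerase. Each sequence covers 250 bases before the annotated start and 50 after it on the gene's strand, from RefSeq on GRCm38.p6, and 9 of the 10 members had an entry. Capitals mark matches, on either strand, to an ETS-family motif (CCGGAAG), the NRF1 motif (GCGCA, then any base, then GCGC) or the YY1 motif (AANATGGC), binding sequences of regulators known for control of mitochondrial genes.
Slirp, chr12:87443646-87443945, plus strand: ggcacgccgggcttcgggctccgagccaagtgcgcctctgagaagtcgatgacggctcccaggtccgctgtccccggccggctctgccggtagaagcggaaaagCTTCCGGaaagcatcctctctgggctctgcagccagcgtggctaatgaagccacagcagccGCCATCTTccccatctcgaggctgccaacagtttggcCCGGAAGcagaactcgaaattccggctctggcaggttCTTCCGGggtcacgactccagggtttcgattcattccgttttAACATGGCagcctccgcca
Tfb1m, chr17:3557706-3558005, minus strand: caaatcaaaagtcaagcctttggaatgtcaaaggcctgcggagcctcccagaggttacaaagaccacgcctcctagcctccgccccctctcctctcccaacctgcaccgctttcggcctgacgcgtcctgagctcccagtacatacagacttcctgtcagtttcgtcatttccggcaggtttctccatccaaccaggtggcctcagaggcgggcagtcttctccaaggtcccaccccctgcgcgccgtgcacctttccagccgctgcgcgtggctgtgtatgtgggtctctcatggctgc
Tfam, chr10:71237995-71238294, minus strand: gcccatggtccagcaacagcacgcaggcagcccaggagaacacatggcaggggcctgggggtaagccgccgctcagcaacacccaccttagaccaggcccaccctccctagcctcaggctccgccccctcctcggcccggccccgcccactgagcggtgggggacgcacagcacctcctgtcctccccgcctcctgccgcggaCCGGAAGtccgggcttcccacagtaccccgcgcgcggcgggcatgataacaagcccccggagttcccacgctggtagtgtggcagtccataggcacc
Polrmt, chr10:79746532-79746831, minus strand: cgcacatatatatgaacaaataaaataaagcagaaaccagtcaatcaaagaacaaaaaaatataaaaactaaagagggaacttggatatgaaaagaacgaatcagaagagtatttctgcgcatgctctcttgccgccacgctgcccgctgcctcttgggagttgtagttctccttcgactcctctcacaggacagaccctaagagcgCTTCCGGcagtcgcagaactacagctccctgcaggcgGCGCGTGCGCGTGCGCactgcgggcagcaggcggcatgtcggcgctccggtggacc
The Slirp window held 3 ETS matches, first bases 146, 48 and 11 before the start, and 2 YY1 matches. Alkbh1, on the opposite strand, overlaps the start of Slirp by 122 bases, so these matches cannot be assigned to Slirp alone. Tfam held 1 ETS match and Polrmt held 1 ETS match beside 2 overlapping NRF1 matches at its start. The Tfb1m window held none of the 3 motifs. Over the 9 promoters, 5 had an ETS match (Slirp, Tfam, Polrmt, Polg and Ssbp1), 1 an NRF1 match and 1 a YY1 match. Over all 32851 promoter windows of that length the shares were 8.86%, 4.6% and 6.05%, and over the 7703 windows of genes tested here 21.3%, 11.2% and 9.8%. A match is a description of letters and not a binding site. Of the 5 genes with an ETS match, Polrmt alone had a difference below 0. Of the genes whose window had none, Lrpprc and Tfb2m had a difference above 0, and Pnpt1 and Tfb1m below it.

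Tfam (ENSMUSG00000003923, chromosome 10, 71225464 to 71238280, minus strand, GRCm38), whose product packages the DNA, was at 11.6, 9.70 and 12.4 FPKM in the inhibitor libraries and at 10.5, 9.43 and 7.04 FPKM in the control libraries. Control replicate 3 was the lowest, and the groups overlapped. The difference was 0.30 (SE 0.23, 95% interval -0.23 to 0.83, limma adjusted p = 0.721). Without control replicate 3 the difference was 0.15.

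Polrmt (ENSMUSG00000020329, chromosome 10, 79736123 to 79746581, minus strand), the single-subunit RNA polymerase, was at 2.70, 2.85 and 3.63 FPKM in the inhibitor libraries and at 3.19, 3.16 and 3.67 FPKM in the control libraries. Replicate 3 was the highest of each group, and the groups overlapped. The difference was -0.10 (SE 0.22, limma adjusted p = 0.910), opposite in sign to that of Tfam.

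Tfb2m (ENSMUSG00000026492, chromosome 1, 179528055 to 179546267, minus strand), which opens the promoter for the polymerase, was the most abundant of the 10 in every library. It was at 94.6, 81.4 and 96.1 FPKM in the inhibitor libraries and at 74.9, 95.4 and 72.9 FPKM in the control libraries, between 46.4% and 57.0% of the summed FPKM of the 10 genes. By mean level it stood at the 91.3 percentile of genes tested. Its difference was 0.17 (SE 0.18, limma adjusted p = 0.795), with control replicate 2 inside the inhibitor range. A pseudogene on chromosome 12, Gm1818, is 99.3% identical over 1187 bases and listed at 25.3 to 33.6 FPKM under the inhibitor and 24.2 to 30.7 FPKM in controls, so reads of the pair may be shared and the level is uncertain.

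Tfb1m (ENSMUSG00000036983, chromosome 17, 3519256 to 3557781, minus strand) is a relative of Tfb2m whose product dimethylates the small ribosomal RNA of mitochondria. Tfb1m was at 0.219, 0.0394 and 0.295 FPKM in the inhibitor libraries and at 0.581, 0.569 and 0.424 FPKM in the control libraries. All 3 inhibitor values lay below the lowest control, and the mean ratio was 0.352. These are small amounts: for the 1 transcript the table lists, of 1402 bases, they come to 9.83, 1.16 and 9.90 steps under the inhibitor and 26.1, 23.7 and 23.5 steps in controls. Whether a step is 1 read or 1 read pair was not tested. With no filter on low values limma gave -0.37 (SE 0.15, unadjusted p = 0.0477, adjusted p = 0.748), where 2.11% of genes were lower at an unadjusted p under 0.05, and the authors' deposited table gives a log2 fold change of -1.51 with a q-value of 0.708. The value was lowest in inhibitor replicate 2, the library of least relative depth as read from the step. Without that library the difference on the log2(FPKM + 1) scale was -0.28. Inhibitor replicate 3, which remains, also had a low relative depth by that reading, 0.604.

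Mterf3 (ENSMUSG00000021519, chromosome 13, 66906968 to 66933088, minus strand), a factor of the MTERF family that in mice restrains transcription and takes part in assembly of the large mitochondrial ribosomal subunit, was at 21.5, 20.5 and 23.3 FPKM in the inhibitor libraries and at 24.8, 20.9 and 19.4 FPKM in the control libraries. The inhibitor values fell inside the control range. Its difference of 0.010 (SE 0.19, 95% interval -0.42 to 0.44, limma adjusted p = 0.990) was the closest to 0 of the 8 tested, and its sign changed in 5 of 15 alternatives.

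Of the copying enzymes, Polg (ENSMUSG00000039176, chromosome 7, 79446231 to 79466362, minus strand), the catalytic subunit of the mitochondrial DNA polymerase, was at 0.372, 0.277 and 0.469 FPKM in the inhibitor libraries and at 0.293, 0.291 and 0.196 FPKM in the control libraries. The groups overlapped at inhibitor replicate 2. The authors' deposited table gives a log2 fold change of 0.52 with a q-value of 0.972 for Polg. Exons of Fanci, a DNA repair gene on the opposite strand, cover 8.57% of its exonic bases, and Fanci averaged 0.808 FPKM ± 0.187 under the inhibitor and 1.14 FPKM ± 0.168 in controls (SD, n = 3 each).

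Ssbp1 (ENSMUSG00000029911, chromosome 6, 40471352 to 40484700, plus strand), which coats single-stranded mitochondrial DNA, was at 28.6, 24.9 and 30.8 FPKM in the inhibitor libraries and at 30.6, 19.5 and 20.6 FPKM in the control libraries. Control replicate 1 lay inside the inhibitor range. The difference was 0.27 (SE 0.23, limma adjusted p = 0.739). A processed pseudogene on chromosome 11, Gm12115, is 97.8% identical over 447 bases and averaged more under the inhibitor too, with 10.3 to 13.8 FPKM against 6.48 to 8.05 FPKM in controls, so the split of reads between the 2 is uncertain.

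Both genes of the RNA-protecting pair had differences above 0, and neither was called. Slirp (ENSMUSG00000021040, chromosome 12, 87443896 to 87452206, plus strand) was at 19.4, 18.6 and 25.3 FPKM in the inhibitor libraries and at 14.0, 14.3 and 12.5 FPKM in the control libraries. Every inhibitor library lay above every control, at 1.55 times the control mean. The difference was 0.59 (SE 0.21, 95% interval 0.12 to 1.06, unadjusted p = 0.0195, limma adjusted p = 0.493), rank 381 of 9691 genes by p. Other settings moved the limma adjusted p between 0.419 and 0.904. Without inhibitor replicate 2 it was 0.67 (limma adjusted p = 0.472). The authors' deposited table gives a log2 fold change of 0.63 with a q-value of 0.393.

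Slirp cannot be read on its own here, because exons of Snw1, a splicing factor gene on the opposite strand, cover 93.9% of its exonic bases. Of the 3 Slirp transcripts listed in the table, of 335, 802 and 2701 bases, the shares lying in Snw1 exons are 62.4%, 78.3% and 93.0%. Strand is not mentioned in the protocols, so the values do not separate reads of the 2 genes, which cannot be told apart. Snw1 was at 11.9, 16.8 and 13.4 FPKM in the inhibitor libraries and at 9.95, 8.86 and 9.08 FPKM in the control libraries, all inhibitor values above all controls as in Slirp. Its difference was 0.53 (SE 0.22, limma adjusted p = 0.557). The highest library was inhibitor replicate 2 for Snw1 and inhibitor replicate 3 for Slirp. Another gene on the opposite strand, Alkbh1, shares 122 exonic bases (3.93%) with Slirp. Its groups overlapped, with a difference of 0.34 (SE 0.29, limma adjusted p = 0.739).

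Lrpprc (ENSMUSG00000024120, chromosome 17, 84705247 to 84790789, minus strand), the partner of Slirp, was at 2.26, 1.69 and 3.41 FPKM in the inhibitor libraries and at 1.36, 1.49 and 2.47 FPKM in the control libraries. The third replicate was the highest of each group and the groups overlapped. The difference was 0.31 (SE 0.28, limma adjusted p = 0.760), and it ran from 0.11 without inhibitor replicate 3 to 0.48 without control replicate 3. Pnpt1 (ENSMUSG00000020464, chromosome 11, 29130744 to 29161828, plus strand), the polynucleotide phosphorylase, was at 1.04, 1.05 and 1.71 FPKM in the inhibitor libraries and at 1.33, 2.26 and 0.796 FPKM in the control libraries. Its difference of -0.092 (SE 0.30, limma adjusted p = 0.947) turned on control replicate 2, without which the value was 0.13 (adjusted p = 0.966).

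**Figure D2:**
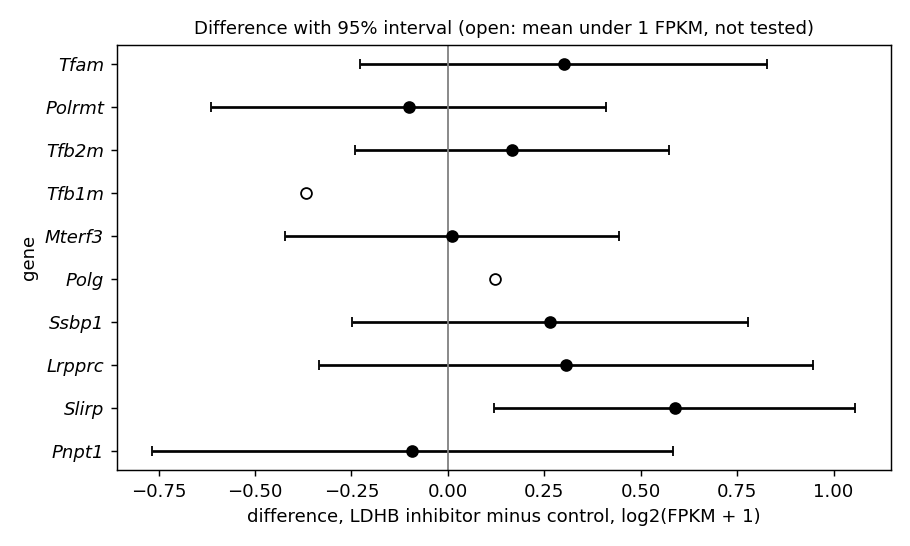
Difference between the inhibitor and control means of log2(FPKM + 1) for each gene, with limma's 95% interval. Filled points are the 8 genes tested, whose unadjusted interval excludes 0 in Slirp alone, and open points are Tfb1m and Polg, shown without interval.

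Among themselves the 10 genes kept nearly the same order of level in all libraries. Tfb2m came first, then Ssbp1, Mterf3 and Slirp in changing order, then Tfam and Polrmt, each of these last 2 at the same rank in all 6 libraries. Tfb1m was the lowest in all 3 inhibitor libraries and Polg in all 3 control libraries. Inhibitor replicate 3 was the highest library for 6 of the 10 genes and control replicate 3 the lowest for 6. The same count was not made over all genes tested, so this may be a trait of the whole libraries. As a percent of nuclear FPKM, the summed members were highest in inhibitor replicate 3 (0.0483%) and lowest in control replicate 3 (0.0329%). The 2 libraries also had the lowest and the highest share of FPKM from mitochondrial DNA, 10.6% and 18.9%, and a link between that share and the member levels was not tested. With each library rescaled to the same nuclear total, the median difference of the 8 was 0.23, and under quantile normalization it was 0.10.

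Ratios inside a library do not depend on the scaling between libraries, and 6 were compared. The test was an exact permutation of the library labels, two-sided, which cannot go below p = 0.1 with 3 against 3 libraries. The ratio of Polrmt to Tfam was 0.234, 0.294 and 0.292 in the inhibitor libraries and 0.305, 0.335 and 0.521 in the control libraries. The inhibitor values all lay lower, by a mean log2 difference of -0.47 (exact permutation p = 0.1, adjusted p = 0.15), and control replicate 3 stood above the other controls. Without that library the log2 difference was -0.23. Tfb2m to Tfb1m was 432, 2065 and 325 under the inhibitor and 129, 168 and 172 in controls, a log2 difference of 2.096 (exact permutation p = 0.1, adjusted p = 0.15), which rests on the low values of Tfb1m. It was 1.27 without inhibitor replicate 2 and 0.54 with a pseudocount of 1. Lrpprc to Slirp, the 2 subunits of 1 complex, was 0.116, 0.0908 and 0.134 under the inhibitor and 0.0968, 0.105 and 0.198 in controls, with overlap (log2 difference -0.17, exact permutation p = 0.8, adjusted p = 0.8). Polg to Ssbp1 overlapped too (log2 difference 0.24, exact permutation p = 0.3, adjusted p = 0.36).

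The transcripts that this machinery makes were set against it in the same way. The 13 coding genes of mitochondrial DNA summed to 52183, 46735 and 39938 FPKM in the inhibitor libraries and 70374, 74776 and 86957 FPKM in the control libraries. Per FPKM of Polrmt this came to 19309, 16376 and 11014 under the inhibitor and 22035, 23631 and 23686 in controls (log2 difference -0.61, exact permutation p = 0.1, adjusted p = 0.15), and the log2 difference was -0.38 without inhibitor replicate 3. Per FPKM of Lrpprc it came to 23138, 27638 and 11719 under the inhibitor and 51803, 50020 and 35146 in controls (log2 difference -1.20, exact permutation p = 0.1, adjusted p = 0.15). All inhibitor ratios lay below all control ratios in both, and the 2 share their numerator, so they are not separate observations.

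**Figure D3:**
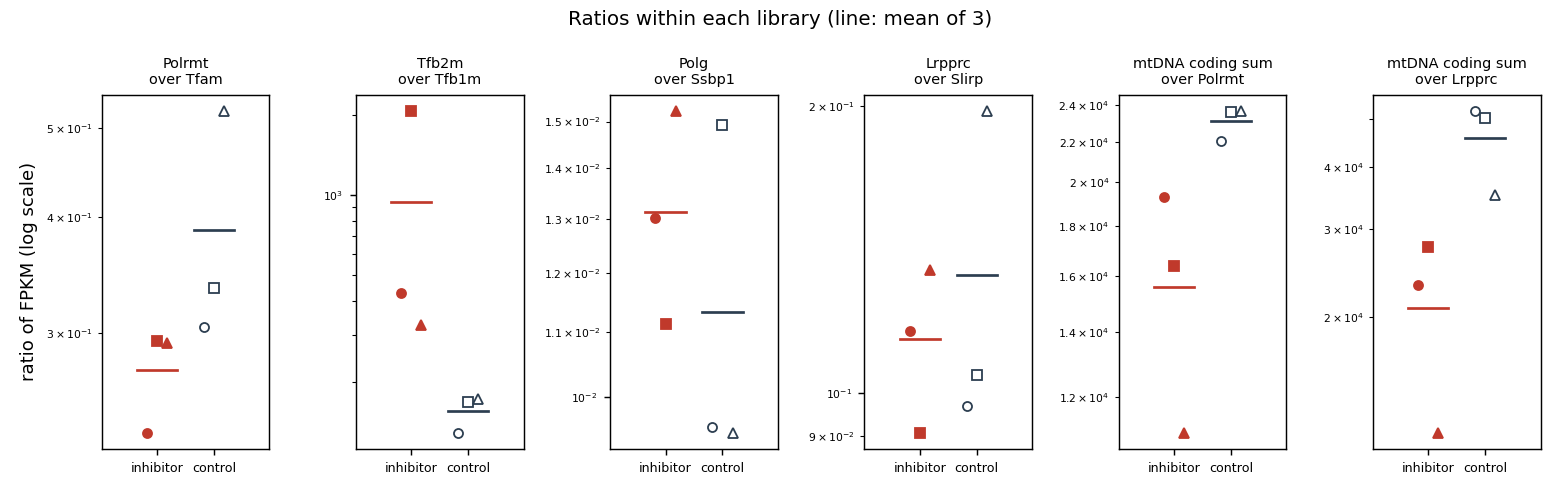
Ratios of FPKM within each library (log scale, 1 panel per ratio), inhibitor libraries in filled red to the left of control libraries in open dark symbols, with a line at each group's mean. The groups separate in 4 panels, Polrmt over Tfam, Tfb2m over Tfb1m and the 2 with the mitochondrial coding sum, and overlap in Polg over Ssbp1 and Lrpprc over Slirp.

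Around the 10 genes, 81 others of mitochondrial DNA upkeep and RNA handling were listed in 6 lists by role. Of these, 80 were matched in the table and 69 tested, and limma called 0 in either direction. At an unadjusted p under 0.05 limma had 1 higher and 3 lower, against 4.72% and 3.8% of all genes tested. The q-values in the authors' deposited table call 0 of the 80 higher and 1, Trmt61b, lower, where 0.455% and 0.496% of all genes were called. By limma difference the 69 split into 34 above 0 and 35 below, with a median of -0.0096, beside 0.062 over all genes tested. The inhibitor libraries all lay above the controls in 2 of the 69 (Polg2 and Mrm3) and below them in 6 (Tefm, Trmt61b, Prorp, Nsun4, Mettl17 and Gabpa), where 9.13% and 6.26% of all genes tested had these orders. Polg2, Prorp, Nsun4 and Mettl17 are named here after their values were seen.

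Of 5 other transcription genes tested, 1 was above 0, where 57.1% of all genes tested were, and the median was -0.053. That count was 0 with median-ratio scaling and 2 with library weights. Tefm, the elongation factor that keeps POLRMT on its template, was at 68.3, 58.0 and 89.0 FPKM in the inhibitor libraries and at 135, 97.9 and 109 FPKM in the control libraries. The groups did not overlap, and the difference was -0.67 (SE 0.21, unadjusted p = 0.0124, limma adjusted p = 0.455). Its sign was opposite to that of Tfam and Tfb2m and the same as that of Polrmt (-0.10) and Tfb1m (-0.37, without a test). Mterf1b, a termination factor with a close paralog that may share its reads, averaged 6.80 FPKM ± 3.66 under the inhibitor and 7.29 FPKM ± 1.899 in controls (SD, n = 3 each).

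Of 18 genes of RNA processing and modification tested, 8 were above 0 and 10 below, with 1 above and 4 below all controls (9.13% and 6.26% of all genes tested). Trmt61b, which methylates mitochondrial transfer RNA, was at 12.3, 17.6 and 17.6 FPKM in the inhibitor libraries and at 31.4, 31.1 and 24.8 FPKM in the control libraries, a difference of -0.85 (SE 0.22, limma adjusted p = 0.409). Mrm3, a methyltransferase of the large mitochondrial ribosomal RNA, went the other way, with 71.1, 57.9 and 64.3 FPKM in the inhibitor libraries and 42.9, 36.5 and 52.8 FPKM in the control libraries (difference 0.55, SE 0.20, limma adjusted p = 0.511). Neither passed the limma threshold. In the authors' deposited table Trmt61b has a log2 fold change of -0.88 with a q-value of 0.00658, under 0.05.

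Among 6 nuclear regulators tested, 2 were above 0. Gabpa, the DNA-binding subunit of the ETS-family regulator known as NRF-2, was at 51.1, 52.5 and 52.3 FPKM in the inhibitor libraries and at 82.4, 66.3 and 61.1 FPKM in the control libraries, without overlap (difference -0.41, SE 0.18, limma adjusted p = 0.584). Of the 5 members with an ETS match, Slirp (0.59), Tfam (0.30), Ssbp1 (0.27) and Polg (0.12, without a test) lay above 0. Polrmt (-0.10, limma adjusted p = 0.910) lay below. Of the members whose window had no ETS match, Lrpprc (0.31) and Tfb2m (0.17) lay above 0. Pnpt1 (-0.092) and Tfb1m (-0.37, without a test) lay below. Over all genes tested 57.1% lay above 0. A link between Gabpa and these genes was not tested. Pprc1, a coactivator of these regulators, averaged 6.72 FPKM ± 2.76 under the inhibitor and 5.53 FPKM ± 2.27 in controls (SD, n = 3 each).

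**Figure D4:**
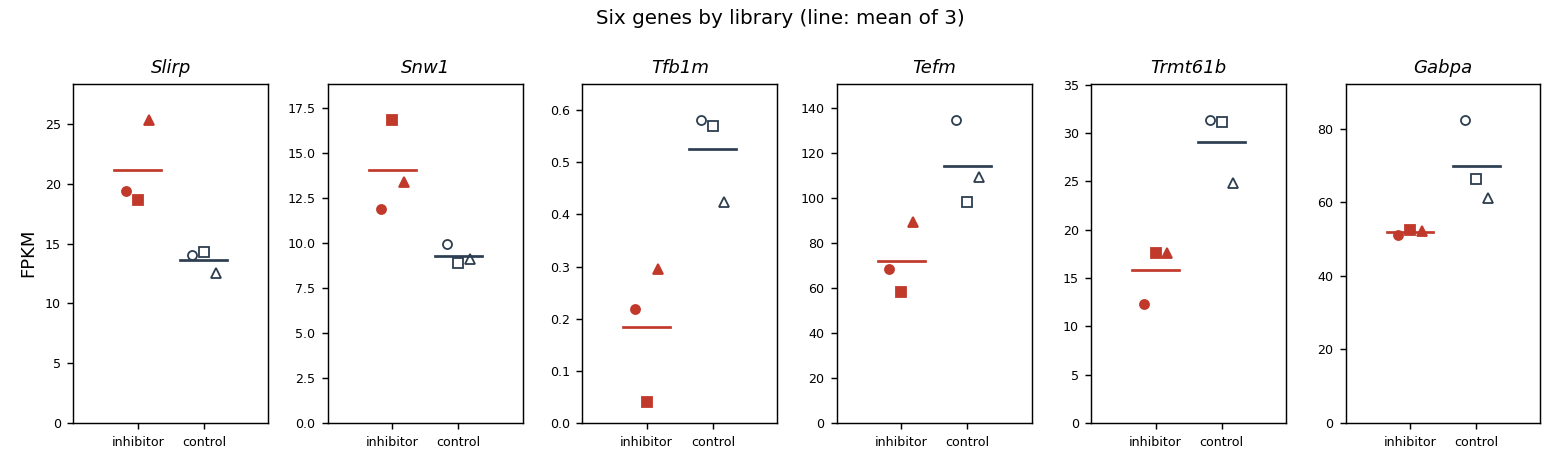
FPKM per library of Slirp, Snw1, which shares most of the Slirp exons on the other strand, Tfb1m, Tefm, Trmt61b and Gabpa, inhibitor libraries in filled red left of control libraries in open dark symbols, with lines at the means and axes that start at 0. The inhibitor libraries lie above the controls in Slirp and Snw1 and below them in the other 4.

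Of 14 genes of replication and nucleotide supply tested, 10 were above 0, with a median of 0.22. Top3a, a topoisomerase that separates linked mitochondrial DNA, averaged 2.71 FPKM ± 0.900 under the inhibitor and 1.51 FPKM ± 0.475 in controls, and Mpv17, an inner membrane protein needed for mitochondrial nucleotide pools, 13.9 FPKM ± 2.53 under the inhibitor and 10.2 FPKM ± 1.56 in controls (SD, n = 3 each). Both overlapped between groups. Without inhibitor replicate 2 the median of this list was 0.016.

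Of 19 further genes of RNA stability and granules tested, 7 were above 0 and 12 below, with a median of -0.031. In 0 of them the groups separated, where 9.13% of all genes tested lay wholly above the controls and 6.26% wholly below. The split about 0 turned with library weights, to 11 above 0 and a median of 0.0031, and quantile normalization left 4 above 0. Ptcd2, a pentatricopeptide protein, averaged 24.1 FPKM ± 5.60 under the inhibitor and 17.6 FPKM ± 3.59 in controls, and Rpusd3, a pseudouridine synthase, 7.50 FPKM ± 1.94 under the inhibitor and 11.1 FPKM ± 3.93 in controls (SD, n = 3 each). Of 7 genes of the nucleoid and of protein turnover 6 were above 0, with a median of 0.36 and 0.11 without inhibitor replicate 1. Lonp1, the matrix protease known to degrade TFAM, was at 3.74, 7.09 and 4.98 FPKM in the inhibitor libraries and at 3.16, 2.84 and 4.06 FPKM in the control libraries (difference 0.50, SE 0.27, limma adjusted p = 0.635). Hspa9, the mitochondrial chaperone mortalin, averaged 38.1 FPKM ± 11.9 under the inhibitor and 28.4 FPKM ± 0.795 in controls (SD, n = 3 each).

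**Figure D5:**
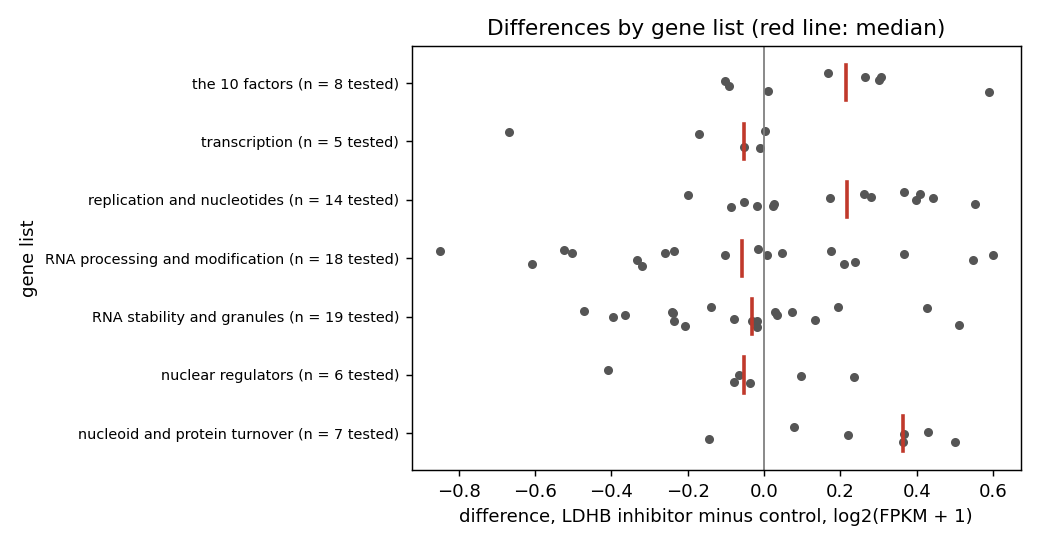
Difference between the inhibitor and control means of log2(FPKM + 1) for each tested gene (points) in the 10 factors and in 6 lists of other genes of mitochondrial DNA upkeep and RNA handling, with a red line at each median. The medians lie at 0.22 for the factors and for replication, at 0.36 for the nucleoid list and just below 0 for the other 4.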

How the data were processed

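Per the labels' protocols, total RNA was reverse transcribed from an oligo(dT) primer, and the PCR-amplified product was fragmented and sequenced from both ends. HISAT2 2.2.1, cutadapt 1.9, edgeR, DESeq2, StringTie 2.1.6 and the build GRCm38 are named, without roles, per the submitters' processing notes. The deposited table held FPKM for each gene in each library, and the authors' fold ratio of group means, its log2, a p-value and a q-value from a test that the sources used here leave unnamed. Strand and molecular identifiers are not mentioned.

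Groups and replicate numbers came from sample titles. From the deposited FPKM, log2(FPKM + 1) was fitted with limma 3.58.1 (R 4.3.3, trended and robust) over the 9691 genes averaging 1 FPKM or more, with Benjamini-Hochberg adjustment over all of them at 0.05. This understates changes of low genes. The members and gene lists were chosen with earlier results of these data known. All members were named; in each list, where none passed, the 2 genes with the smallest p. Coordinates and exons came from GENCODE M21 (GRCm38), which held 29348 of the gene identifiers; copies were sought with BLAST 2.17.0 (at least 95% identity over at least 100 bases). A step is the commonest value of FPKM times length within a preset range of low values, with a tolerance of 0.01. The number of sequenced reads remains unknown. Plots used matplotlib 3.10.9.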

Additional observations from a re-analysis of the deposited data

How the results depend on the processing

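The Slirp difference ran from 0.46 to 0.67 over the alternative runs, and its adjusted p stayed above the threshold in each. Its inhibitor values all lay above its controls, so leaving out a library could not change the sign. Reads of Snw1 are not separated from it in any run. The median difference of the 8 tested members ran from 0.10 under quantile normalization to 0.29 without inhibitor replicate 2. Among members, Mterf3 changed sign, to -0.052 with median-ratio scaling and -0.094 with quantile normalization, and ran from -0.064 to 0.11 with a library left out; Pnpt1 ran from -0.30 to 0.13, and with a library left out Polrmt ran from -0.20 to -0.039, Tfb2m from 0.096 to 0.29 and Ssbp1 from 0.15 to 0.46. The log2 ratio of Lrpprc to Slirp ran from -0.36 to 0.16 with a library left out, and that of Polg to Ssbp1 was -0.14 with a pseudocount of 1. The cause was not tested.

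Over all genes, leaving out a library gave 0 to 11 limma calls higher (11 without inhibitor replicate 1, 1 without inhibitor replicate 2) and 0 to 1 lower. At an unadjusted p under 0.05 there were 457 genes higher and 368 lower, 327 and 478 with median-ratio scaling, 268 and 543 with quantile normalization, 259 and 206 among genes of at least 5 FPKM, and 678 and 622 with no filter; leaving out a library gave 291 to 751 higher and 231 to 438 lower. Of the other pathway genes 22 were above 0 at 5 FPKM or more, where fewer genes are tested.

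Same-numbered libraries had deviation correlations of 0.136, 0.202 and 0.0368. Each inhibitor library correlated best with its own number and control replicate 3 did not, so whether numbers mark a shared origin is not settled by these values, and the labels do not say. With the replicate as a block limma called 0 genes, and 485 were higher at an unadjusted p under 0.05. In this balanced layout the block cannot alter a difference, so Slirp was again at 0.59 (limma adjusted p = 0.547). Depth limits Tfb1m and Polg most, and inhibitor replicate 2 had the least relative depth as read from the step.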
